A study of Mus musculus with 58 samples.

Results

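The clustered protocadherins are cell-adhesion proteins encoded in 3 tandem arrays, alpha, beta and gamma, on mouse chromosome 18. They were identified here by gene symbol (Pcdha, Pcdhb or Pcdhg followed by the isoform number) with a mean of at least 10 normalised counts over all libraries. This gave 57 of the 18088 genes in the deposited table: all 14 annotated alpha genes, 21 of 22 beta genes and all 22 gamma genes. Pcdhb1 was not analysed here. The least abundant were Pcdha8 with a mean of 30.8, Pcdhgb8 with 40.3 and Pcdhb2 with 48.3 normalised counts, so that no gene lay close to the limit of 10, and none in the table fell below it.

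In the alpha and gamma arrays each isoform has its own promoter and its own large variable exon, which is spliced to constant exons shared by the whole array, whereas the beta genes are single-exon genes without a constant region. A neuron uses a small set of alternate isoforms, chosen through CTCF, cohesin and promoter DNA methylation, and the isoforms that neighbouring membranes share bind homophilically, which serves self-recognition and self-avoidance of neurites. The C-type isoforms at the end of the alpha and gamma arrays (Pcdhac1, Pcdhac2, Pcdhgc3, Pcdhgc4 and Pcdhgc5) are regulated separately and more constitutively. Among them Pcdhac2 is known for the tiling of serotonergic axons and Pcdhgc4 for the survival of cortical interneurons.

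RNA was sequenced from the prefrontal cortex of C57BL/6J mice on postnatal day 25. Animals were labelled heterozygous (HT) or wild-type (WT) for Kmt5b, a histone H4 lysine methyltransferase gene, and had received fluoxetine, lithium or vehicle through the mother's milk for 3 weeks, on days 3 to 24. The 58 libraries were 10 each of HT fluoxetine, HT lithium, HT vehicle, WT fluoxetine and WT vehicle plus 8 from WT mice given lithium. Males and females were equally numerous, with 5 libraries in 10 of the groups of genotype, treatment and sex and 4 in the other 2. The labels give neither the mutant allele nor the litter, and littermates share a treatment that comes with the milk, so p-values measure the spread between these libraries.

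Library depth was 23.5 to 38.6 M recovered reads per library (median 27.6 M). Xist, the only sex-linked transcript checked, matched the sex label in 58 of 58 libraries. Kmt5b was read first, as a check of the genotype labels. Its normalised count was 1750 ± 128 in HT fluoxetine, 1744 ± 73.8 in HT lithium and 1709 ± 90.2 in HT vehicle, against 1741 ± 124 in WT fluoxetine, 1592 ± 132 in WT lithium and 1616 ± 119 in WT vehicle (SD, n = 10, and 8 for WT lithium). The difference averaged over treatments was 0.07 on the log2 scale (SE 0.0251, limma adjusted p = 0.186), so Kmt5b was not lower in the libraries labelled HT, and the direction of every comparison of HT with WT rests on the labels. The excitatory cortical marker Slc17a7 was abundant in all libraries (lowest 33553 normalised counts). Markers of olfactory bulb projection neurons (Doc2g, Cdhr1, Tbx21 and Eomes) were present at very unequal levels, their mean log2 level being 3.603 to 5.01 in 10 libraries and 6.77 to 10.65 in the other 48. Of the 10, 7 were male and 3 female, and 6 were HT and 4 WT. None came from HT vehicle (lowest level 7.44) or WT lithium (lowest 7.08), so the 6 HT libraries had all received a drug. In bulk tissue, fewer cells of a type and less RNA per cell cannot be told apart.

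The arrays lay side by side on the plus strand, the alpha array at chr18:36930184-37187661, the beta array at chr18:37294812-37524479 and the gamma array at chr18:37661793-37841873 (GRCm38, GENCODE M21). Because of the constant exons, only part of an isoform's annotated exon sequence was its own. That share had a median of 46.6% in alpha (45.1% to 62.0%) and 55.3% in gamma (33.2% to 72.2%), against 100% in beta (at least 90.3%). The table gives 1 estimated value per gene, and how reads on the constant exons had been divided among isoforms cannot be read from it, so alpha and gamma levels are uncertain in a way that beta levels are not. The gene ENSMUSG00000007440 carries the symbol Pcdha11 in GENCODE, as does ENSMUSG00000102206. It starts at the position that RefSeq gives for Pcdha10 and is called Pcdha10 here.

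The highest levels in the alpha and gamma arrays were those of C-type isoforms. Per kilobase of annotated exon, the normalised count over the 58 libraries was 770 ± 87.9 for Pcdhgc5, 721 ± 186 for Pcdhgc4, 633 ± 55.3 for Pcdhgc3 and 466 ± 45.6 for Pcdhac2 (SD, n = 58), which were the 4 highest levels per kilobase of the 57 genes. The spreads of the 3 gamma C-type levels overlapped. Pcdhac1 stood apart from them at 45.5 ± 7.23, within the range of the alternate alpha isoforms.

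The alternate isoforms were lower and differed widely within each array. Their median level per kilobase was 79.3 over 19 gamma isoforms, 56.0 over 12 alpha isoforms and 33.8 over 21 beta genes. In gamma the highest were Pcdhga11 (175), Pcdhga3 (129) and Pcdhga6 (123) and the lowest Pcdhgb8 (8.74), Pcdhgb5 (29.6) and Pcdhgb4 (36.7). In alpha the levels ran from Pcdha12 (104), Pcdha5 (90.8) and Pcdha4 (81.1) down to Pcdha11 (29.9), Pcdha1 (26.9) and Pcdha8 (5.77). In beta Pcdhb9 (93.4), Pcdhb17 (93.3) and Pcdhb20 (90.2) were close together at the top, and Pcdhb6 (21.7), Pcdhb4 (17.3) and Pcdhb2 (17.2) stood at the bottom. Pcdhgb8 is annotated as a polymorphic pseudogene.

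**Figure D1:**
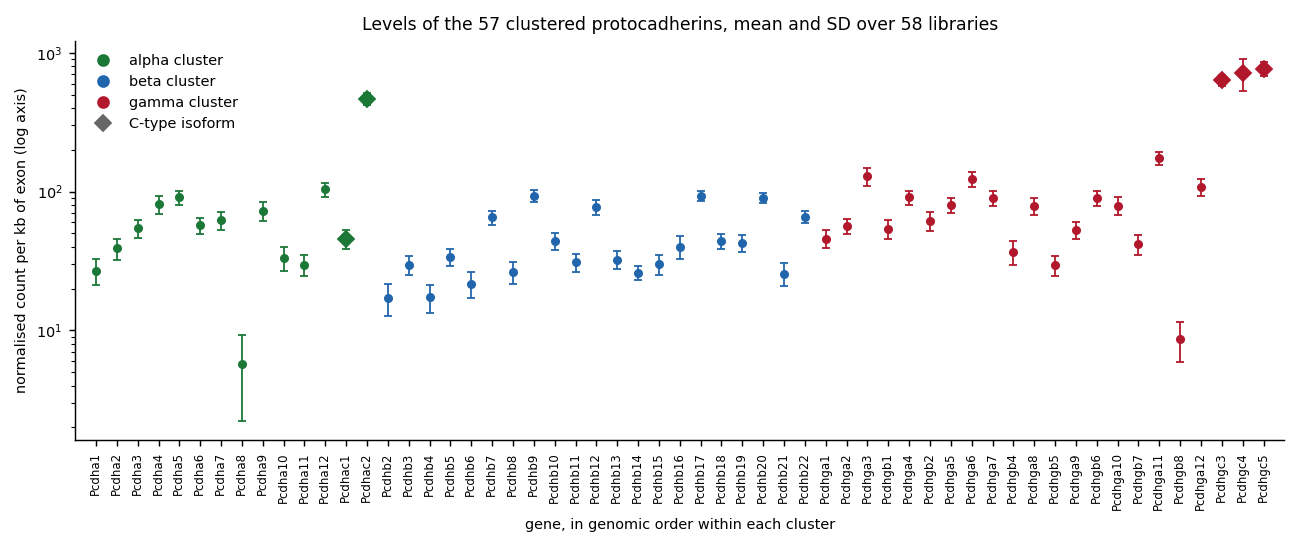
Normalised count per kilobase of annotated exon (log axis) for each of the 57 genes in array order, with the mean and SD over 58 libraries. Pcdhgc5, Pcdhgc4, Pcdhgc3 and Pcdhac2 stand at 466 to 770, and Pcdha8 at 5.77 and Pcdhgb8 at 8.74 lie below the other genes.

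Together the 57 genes took 0.107% ± 0.00407 of all normalised counts (SD, n = 58). The gamma array contributed 20654 ± 958 normalised counts per library, the alpha array 6594 ± 397 and the beta array 4010 ± 313. C-type isoforms made up 64.8% ± 2.89 of the gamma total and 45.3% ± 2.47 of the alpha total. The share of all counts was 0.105% ± 0.00390 in HT fluoxetine and 0.106% ± 0.00315 in HT lithium, against 0.112% ± 0.00343 in HT vehicle (SD, n = 10 each). The WT shares were 0.106% ± 0.00290 with fluoxetine (n = 10), 0.107% ± 0.00382 with lithium (n = 8) and 0.107% ± 0.00308 with vehicle (n = 10). HT vehicle thus had the highest mean share of the 6 groups of genotype and treatment.

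In normalised counts the gamma array held most of this difference. Its total was 20332 ± 718 (19378 to 21601) in HT fluoxetine and 19959 ± 722 (19185 to 21734) in HT lithium, against 21708 ± 731 (20328 to 22781) in HT vehicle. The WT totals were 20139 ± 851 with fluoxetine, 20634 ± 1060 with lithium and 21145 ± 446 with vehicle. The groups overlapped in every case. Without the C-type isoforms the gamma total was 6919 ± 735 in HT fluoxetine and 7061 ± 357 in HT lithium, against 7809 ± 814 in HT vehicle, and 7340 ± 454 in WT fluoxetine and 7287 ± 790 in WT lithium, against 7200 ± 630 in WT vehicle. Alpha totals averaged 6336 to 6733 and beta totals 3875 to 4103 over the 6 groups, differences of the size of the SD within a group. These totals are sums over genes of 1 library and were not tested.

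The median clustered protocadherin varied more between libraries of a group than the median gene. The residual SD on the log2 scale, after the group means were removed, had a median of 0.217 in alpha, 0.190 in beta and 0.190 in gamma, against 0.147 over all genes tested. Pcdha8 (0.958) and Pcdhgb8 (0.411) varied most, followed by Pcdhb4 (0.337), Pcdhb2 (0.335) and Pcdhgc4 (0.316). For Pcdha8 the reads were few, with a median of 26.5 and as few as 2 in a library, and for Pcdhgb8 the median was 37.5 and the smallest 14. Pcdhgc4 was abundant in every library, and its group means were 4580 ± 1187 in HT fluoxetine, 3749 ± 546 in HT lithium and 4302 ± 1424 in HT vehicle, 3362 ± 407 in WT fluoxetine, 3857 ± 1067 in WT lithium and 4309 ± 971 in WT vehicle.

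Members of an array moved together from library to library to different degrees. Over the 58 libraries, the correlation of residuals between pairs of genes had a median of 0.367 within gamma, 0.315 within beta and 0.0784 within alpha. Between arrays the median was 0.234 for beta with gamma, 0.0479 for alpha with gamma and -0.0124 for alpha with beta. These points share library preparation and depth, and for alpha and gamma also the constant exons. A measure of how strongly the values of a library depended on transcript length, the slope of its log2 values on log2 exon length over the genes tested, moved with many of the same genes. The correlation of residuals with this slope had a median of 0.458 in gamma, 0.404 in beta and 0.0825 in alpha, against -0.00926 over all genes tested, and reached 0.781 for Pcdhb19 and -0.810 for Pcdhgc4 (n = 58). With the olfactory bulb level the strongest were Pcdhac2 (-0.721), Pcdhgb7 (0.715) and Pcdhb6 (0.694). Given these correlations, the genes of an array are not independent observations, and counts of genes that move one way are descriptions.

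Fluoxetine against vehicle in HT was 1 of 4 drug comparisons, and it held the most calls. Of the 57 genes 5 fell and 0 rose, 4 of them gamma isoforms (Pcdhga10, Pcdhgb1, Pcdhgb2 and Pcdhga12) and the other the beta gene Pcdhb9. That is 8.77% of the clustered protocadherins, where 12.8% of all 16669 genes tested passed in either direction and 5.96% fell. The share called was thus below that of all genes in either direction and above it among genes that fell. With the exon length slope in the model 16 of the 57 passed (28.1%, of which 15 fell), where 14.2% of all genes did, and by edgeR on whole reads recovered from 54 libraries 3 passed (5.26%), where 4.9% of all genes did. In the gamma array 20 of 22 isoforms had a value below 0 (median -0.16 on the log2 scale, against -0.00 over all genes), and 11 of 22 had an unadjusted p under 0.05, all lower. Over all genes 27.9% had such a p, and 13.8% with a lower value.

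Pcdhga10, a gamma isoform of subfamily A (chr18:37746993-37841873), had the smallest p. Its normalised count was 289 at the lowest, 323 at the median and 413 at the highest in HT fluoxetine, against 332, 443 and 536 in HT vehicle. All HT fluoxetine libraries were below the HT vehicle median, and the groups overlapped. The means were 340 ± 49.1 in HT fluoxetine and 433 ± 64.2 in HT vehicle (SD, n = 10 each), differing by -0.35 on the log2 scale (SE 0.0821, limma adjusted p = 0.00448). The value was -0.43 in males and -0.26 in females. Pcdhga10 fell under all 16 other settings tried and without any 1 of the 20 libraries.

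Pcdhgb1, a gamma isoform of subfamily B near the start of the array, ranged from a low of 210 over a median of 269 to 358 in HT fluoxetine, against 251, 344 and 365 in HT vehicle. HT fluoxetine libraries were lower on the whole, with wide overlap (log2 difference -0.29, SE 0.0919, limma adjusted p = 0.0315). Pcdhgb2, of the same subfamily, stood at 203, 276 and 337 in HT fluoxetine, against 242, 328 and 404 in HT vehicle (-0.26, SE 0.0913, limma adjusted p = 0.0462). Pcdhga12, the last alternate isoform of the array, stood at 561, 672 and 858 in HT fluoxetine, against 606, 801 and 1022 in HT vehicle (-0.24, SE 0.0824, limma adjusted p = 0.0479). In both genes the groups overlapped over most of their range. Pcdhb9, the beta gene with the highest level per kilobase, stood at 214, 273 and 315 in HT fluoxetine, against 268, 303 and 343 in HT vehicle (-0.18, SE 0.0567, limma adjusted p = 0.0322), with the lowest HT vehicle library near the HT fluoxetine median.

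These 4 calls were less firm than that of Pcdhga10. Pcdhgb1 passed without any 1 of 11 of the 20 libraries, Pcdhgb2 of 9, Pcdhga12 of 5 and Pcdhb9 of 13. Without the 10 libraries of low olfactory bulb level only Pcdhga10 of the 57 genes fell, and the other 4 had log2 values of -0.22 (Pcdhgb1), -0.18 (Pcdhgb2), -0.21 (Pcdhga12) and -0.13 (Pcdhb9), with limma adjusted p between 0.108 and 0.192. Of the 2 groups compared only HT fluoxetine lost libraries in this way, as HT vehicle held none of the 10. Among members that did not pass, Pcdhga4 (-0.18, adjusted p = 0.0777), Pcdhgb6 (-0.20, adjusted p = 0.0804) and Pcdhb6 (-0.31, adjusted p = 0.0825) had limma values below 0, and Pcdhb22 one above 0 (0.13, adjusted p = 0.101). Of the C-type isoforms Pcdhgc5 had -0.16 (adjusted p = 0.142) and Pcdhgc4 0.11. The alpha array held no gene with an unadjusted p under 0.05, and 12 of its 14 values were below 0.

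Several other measures moved with fluoxetine in HT. The olfactory bulb level was 7.44 ± 2.32 in HT fluoxetine, against 8.999 ± 0.745 in HT vehicle (SD, n = 10 each), with 0 of 4 markers called (median log2 difference -1.55), and their summed normalised counts were 157 to 10513 in HT fluoxetine, against 1218 to 6740 in HT vehicle. The exon length slope was 1.04 ± 0.0281 in HT fluoxetine and 1.02 ± 0.0346 in HT vehicle. Oligodendrocyte markers rose in 5 of 10 (median 0.41), with summed normalised counts of 83130 to 200006 in HT fluoxetine, against 63251 to 137846 in HT vehicle. Of other marker lists, 2 of 9 astrocyte (22.2%), 3 of 9 microglia (33.3%) and 3 of 10 endothelial and mural genes (30%) rose, and 1 of 11 inhibitory neuron genes (9.09%) fell. Over all genes tested 12.8% passed in this comparison. With the olfactory bulb level in the model the gamma array still had 20 of 22 values below 0 (median -0.13), with the exon length slope 21 of 22 (median -0.21) and without the 10 low libraries 20 of 22 (median -0.12). The part of the other cell types in these results was not tested.

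Lithium against vehicle in HT uses the same HT vehicle libraries, so its values are not independent of those with fluoxetine. Here 2 gamma isoforms fell and 1 beta gene rose, 5.26% of the 57 genes, where 14.1% of all genes tested passed, 7.46% higher and 6.61% lower. With the exon length slope in the model 10 of the 57 fell (17.5%) and 0 rose, where 10.1% of all genes passed in either direction, so the order of the shares turned round. Again 20 of 22 gamma values were below 0 (median -0.12, against -0.00 over all genes), 8 of them with an unadjusted p under 0.05. Over all genes 29.6% had such a p, and 14.4% with a lower value. In beta 12 of 21 values were above 0, and in alpha 7 of 14.

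Pcdhgb2 had 222 normalised counts at the lowest, 259 at the median and 313 at the highest in HT lithium, against 242, 328 and 404 in HT vehicle. All HT lithium libraries lay below the HT vehicle median, and the groups overlapped. Its log2 difference was -0.28 (SE 0.0913, limma adjusted p = 0.0315), -0.26 in males and -0.30 in females. Pcdhga12 stood at 553, 671 and 841 in HT lithium, against 606, 801 and 1022 in HT vehicle (-0.25, SE 0.0824, limma adjusted p = 0.0328). Pcdhb22, the last gene of the beta array, was the only member that rose with either drug in HT, with 393, 459 and 495 in HT lithium, against 362, 404 and 455 in HT vehicle (0.16, SE 0.0556, limma adjusted p = 0.0456).

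Pcdhgb2 passed under all 16 other settings and without any 1 of 13 of the 20 libraries, Pcdhga12 under 13 settings and without any 1 of 14 libraries, and Pcdhb22 under 8 settings and without any 1 of 4 libraries. Pcdhga10 had -0.21 with lithium (limma adjusted p = 0.0778). Beside these results the olfactory bulb level was 7.72 ± 2.27 in HT lithium, against 8.999 ± 0.745 in HT vehicle (0 of 4 markers called, median -1.25), and the exon length slope 1.05 ± 0.0168 in HT lithium, against 1.02 ± 0.0346 in HT vehicle. Endothelial and mural markers rose in 1 and fell in 4 of 10 (50%), and 0 of 10 oligodendrocyte markers passed. Among 9 astrocyte markers 1 rose and 1 fell (22.2%). An inhibitory neuron marker rose (1 of 11, 9.09%) and an oligodendrocyte precursor marker fell (1 of 6, 16.7%). Over all genes tested 14.1% passed. Gamma values were below 0 in 20 of 22 genes in males alone and 19 of 22 in females alone with lithium, and in 20 and 21 with fluoxetine.

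**Figure D2:**
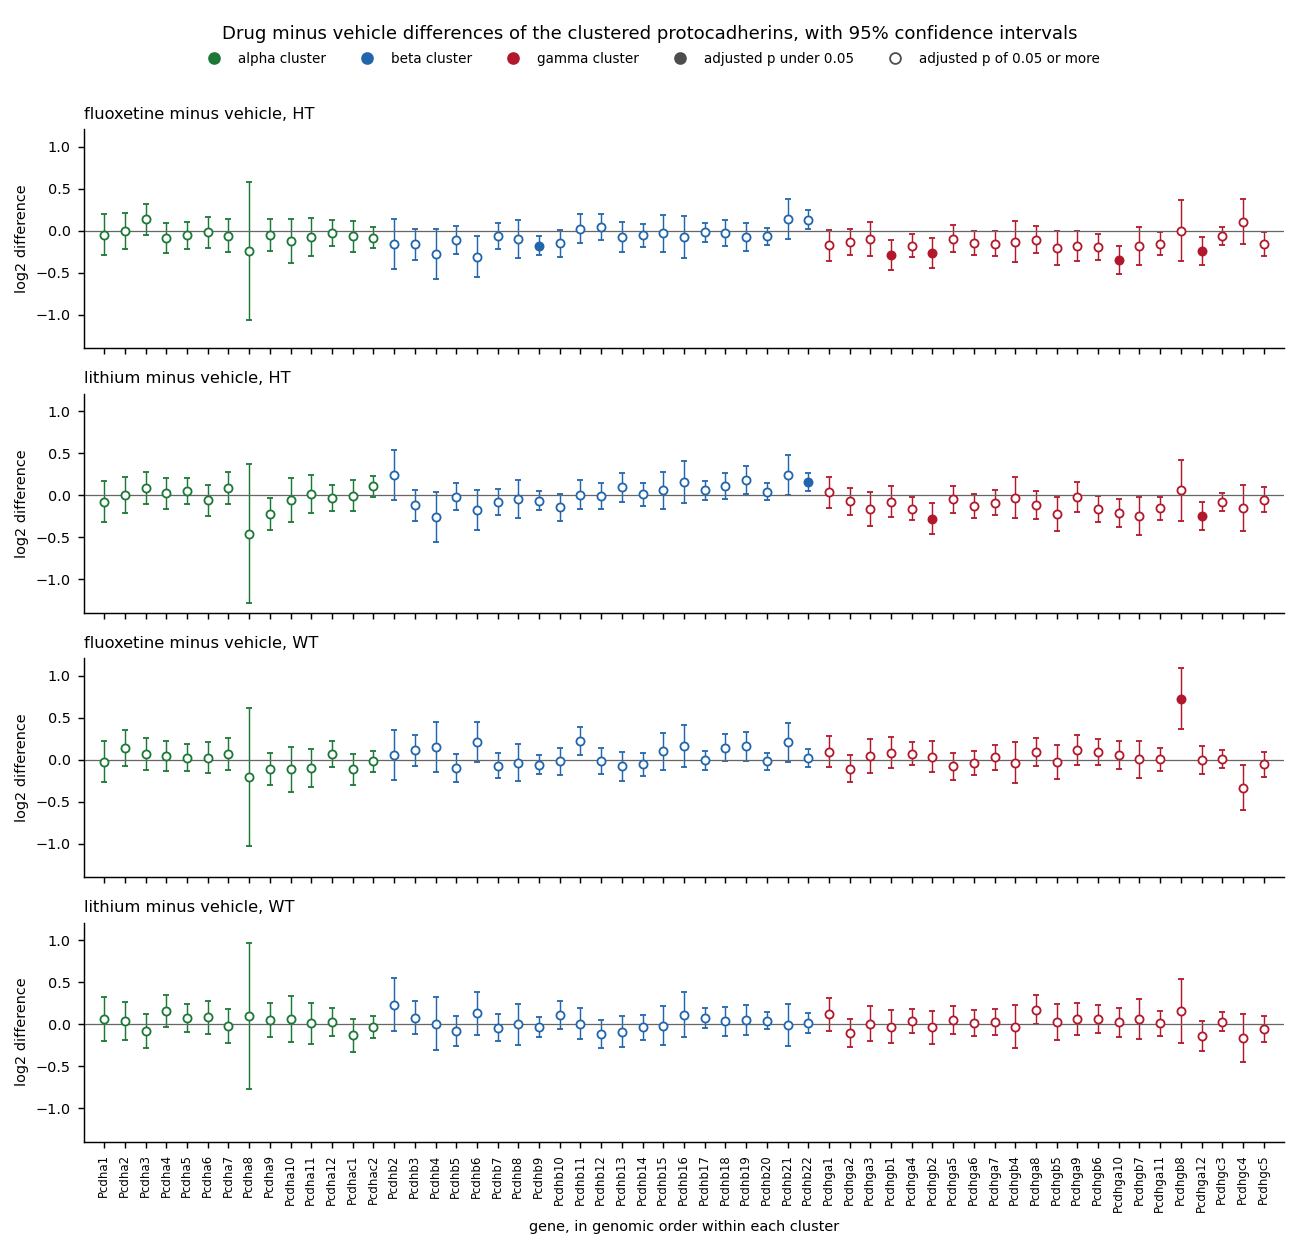
Log2 difference of drug against vehicle for each of the 57 genes in array order, in HT and in WT, with genes that passed at an adjusted p under 0.05 marked. In HT, 20 of 22 gamma values lie below 0 with either drug, and in WT 14 of 22 with fluoxetine and 15 of 22 with lithium lie above 0.

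Fluoxetine against vehicle in WT gave 1 call, 1.75% of the 57 genes, where 7.39% of all genes tested passed and 3.98% rose. Pcdhgb8 rose, with 31.1 normalised counts at the lowest, 51.5 at the median and 71.9 at the highest in WT fluoxetine, against 16.9, 32.5 and 47.4 in WT vehicle. Its WT fluoxetine median was above every WT vehicle library, and the groups overlapped at the lower end. The means were 52.7 ± 14.9 in WT fluoxetine and 31.5 ± 9.13 in WT vehicle (SD, n = 10 each), differing by 0.73 on the log2 scale (SE 0.180, limma adjusted p = 0.00896), 1.03 in males and 0.43 in females. It rose without any 1 of the 20 libraries, but the call ended with the exon length slope in the model, where the log2 difference was 0.54 (limma adjusted p = 0.138). That slope was 1.06 ± 0.0163 in WT fluoxetine, against 1.03 ± 0.0419 in WT vehicle.

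Other members did not pass in WT with fluoxetine. Pcdhgc4 had 3362 ± 407 normalised counts in WT fluoxetine, against 4309 ± 971 in WT vehicle (-0.33, SE 0.135, limma adjusted p = 0.113), and Pcdhb11 152 ± 26.6 in WT fluoxetine, against 129 ± 15.2 in WT vehicle (0.22, SE 0.0851, limma adjusted p = 0.0915). Gamma values were above 0 in 14 of 22 genes. They were above 0 in 19 of 22 in males alone and below 0 in 17 of 22 in females alone, and with the exon length slope in the model 19 of 22 were below 0, so no direction is given for the array in WT. The olfactory bulb level was 8.28 ± 1.95 in WT fluoxetine, against 7.38 ± 2.24 in WT vehicle. Of the marker lists, 1 of 9 excitatory (11.1%), 1 of 9 astrocyte (11.1%) and 2 of 10 endothelial and mural genes (20%) fell, where 7.39% of all genes tested passed.

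Lithium against vehicle in WT moved no member past the threshold, where 3.34% of all genes tested passed. By limma, edgeR and DESeq2 the count was 0, and 0 of 57 had an unadjusted p under 0.05 by limma, where 15.9% of all genes did. The smallest adjusted p was 0.319, for Pcdhga8 (409 ± 76.1 in WT lithium, n = 8, against 359 ± 40.3 in WT vehicle, n = 10, limma log2 difference 0.17). Gamma values were above 0 in 15 of 22 genes, in 19 of 22 in males alone and in 4 of 22 in females alone. For Pcdhga10 the value was 0.02 (95% interval -0.15 to 0.20). Among cell type markers, 1 of 9 excitatory genes fell (11.1%), and of 9 astrocyte genes 1 rose and 1 fell (22.2%).

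**Figure D3:**
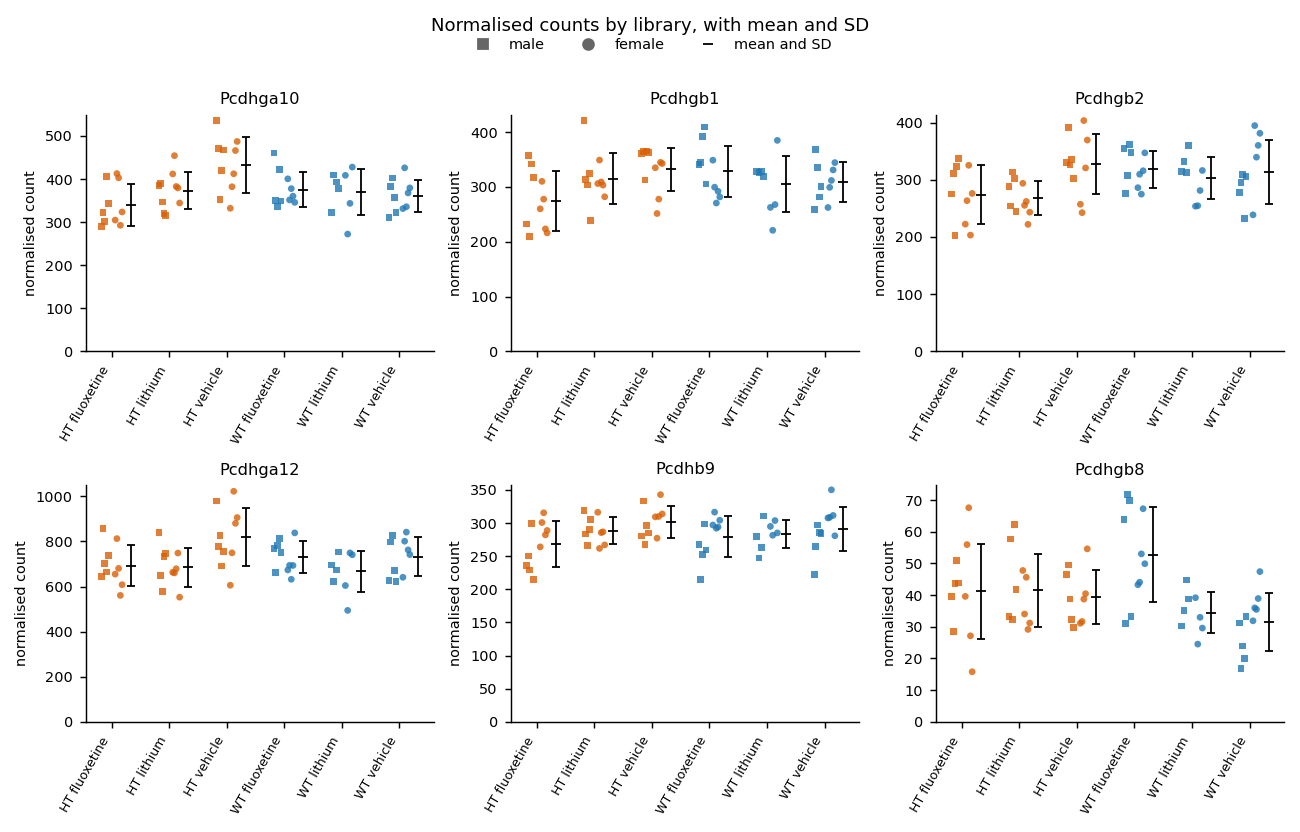
Normalised count in every library, by genotype and treatment, of Pcdhga10, Pcdhgb1, Pcdhgb2, Pcdhga12, Pcdhb9 and Pcdhgb8, each called in a drug comparison, with the mean and SD of each group. Pcdhb22, which rose with lithium in HT, is not shown. Pcdhga10 averages 340 in HT fluoxetine and 433 in HT vehicle, and Pcdhgb8 averages 52.7 in WT fluoxetine and 31.5 in WT vehicle, and the groups overlap in each gene.

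Whether the drug effects differed between genotypes was tested with interaction terms. For fluoxetine 0 of 57 genes passed by limma, edgeR or DESeq2, where 0.042% of all genes tested passed by limma. At an unadjusted p under 0.05 there were 13 genes (22.8%, against 11.1% of all genes), 12 with a more negative value in HT than in WT (a direction that 5.6% of all genes had) and 1, Pcdhgc4 (0.44), with a more positive one. Gamma values were below 0 in 21 of 22 (median -0.18). Beside these values the olfactory bulb markers had a median of -2.44, with 0 of 4 called and 3 at an unadjusted p under 0.05. Of other markers, 1 of 9 microglia and 1 of 10 endothelial and mural genes were called by limma, both higher. Pcdhga10 had -0.40 (SE 0.116, limma adjusted p = 0.175), Pcdhb6 -0.52 (SE 0.171, limma adjusted p = 0.247) and Pcdhgb8 -0.73 (SE 0.255, limma adjusted p = 0.273). For lithium 0 of 57 passed by any of these tools, as did 0% of all genes by limma. There were 4 genes with an unadjusted p under 0.05, all lower (7.02%, where 13.9% of all genes had such a p and 6.07% with a lower value), and 18 of 22 gamma values below 0. Pcdhga8 had the smallest p (-0.29, SE 0.119, limma adjusted p = 0.281). The olfactory bulb markers had a median of -2.37 for lithium, with 0 of 4 called and 2 at an unadjusted p under 0.05. The drug effects in HT and WT on these genes are therefore not shown to differ.

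The genotype itself was compared under each treatment. No member passed under vehicle, fluoxetine or lithium, or averaged over the 3, by limma, edgeR or DESeq2, where 0.048%, 0.612%, 0.06% and 0.468% of all genes tested passed by limma. At an unadjusted p under 0.05 there were 5, 11, 3 and 6 of the 57 genes, where 12.2%, 13.9%, 10.1% and 10.6% of all genes had such a p. Under vehicle, where the HT libraries are those of the HT drug comparisons, gamma values were above 0 in 18 of 22 genes, in 21 in males alone and 12 in females alone. Pcdhga10 had 433 ± 64.2 in HT vehicle, against 362 ± 37.1 in WT vehicle (0.25, SE 0.0821, limma adjusted p = 0.203). Its levels in HT fluoxetine (340 ± 49.1) and HT lithium (373 ± 42.4) were near those of WT fluoxetine (375 ± 40.2), WT lithium (369 ± 52.9) and WT vehicle. As Pcdhga10 did not pass between HT and WT under vehicle, a return to the WT level is not shown. The olfactory bulb level was 8.999 ± 0.745 in HT vehicle, against 7.38 ± 2.24 in WT vehicle (0 of 4 markers called, median 1.60). Pcdhga10 residuals had a correlation of 0.348 with that level.

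Under fluoxetine 47 of 57 values were below 0, 30 with the exon length slope in the model. Pcdhgc4 had 4580 ± 1187 in HT fluoxetine, against 3362 ± 407 in WT fluoxetine (0.41, SE 0.135, limma adjusted p = 0.14), and Pcdhgb1 274 ± 54.5 in HT fluoxetine, against 328 ± 46.8 in WT fluoxetine (-0.27, SE 0.0919, limma adjusted p = 0.155). Pcdhac2 had 2532 ± 301 in HT fluoxetine, against 2800 ± 305 in WT fluoxetine (-0.15, SE 0.0607, limma adjusted p = 0.248). Under lithium Pcdha1 had 129 ± 27.2 in HT, n = 10, against 161 ± 23.3 in WT, n = 8 (-0.34, SE 0.128, limma adjusted p = 0.355).

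Averaged over treatments, 2 alpha isoforms had the smallest p. Pcdha1, the first isoform of the array, had 132 ± 27.2 in HT (n = 30), against 157 ± 27.7 in WT (n = 28), differing by -0.25 on the log2 scale (SE 0.0714, limma adjusted p = 0.0873). Pcdhac1 had 231 ± 35.4 in HT, against 264 ± 36.4 in WT (-0.19, SE 0.0537, limma adjusted p = 0.0874). Its values in HT fluoxetine (141 to 289), HT lithium (172 to 287) and HT vehicle (196 to 256) overlapped those in WT fluoxetine (209 to 311), WT lithium (172 to 309) and WT vehicle (243 to 322), and every HT mean was below every WT mean. Pcdhac1 passed with the olfactory bulb level in the model (adjusted p = 0.0435) and without HT fluoxetine male 5 (adjusted p = 0.0453).

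Sex was carried in the design, and males were compared with females over all genotypes and treatments. Here 2 of the 57 genes fell in males, Pcdha8 and Pcdhb10, which is 3.51%, where 0.132% of all genes tested passed in either direction and 0.078% were lower in males. Of the 22 genes called, 13 lay on the X or Y chromosome. Among 16109 autosomal genes 9 were called (0.0559%), the 2 protocadherins included. At an unadjusted p under 0.05 there were 19 of 57 (33.3%), against 8.25% of all genes (3.85% lower and 4.41% higher in males) and 8.22% of autosomal genes, and by array, in beta 7 were lower and 0 higher in males, in alpha 4 lower and 1 higher, and in gamma 0 lower and 7 higher.

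Pcdha8, an alternate alpha isoform (chr18:36992371-37187657), had 2.15 normalised counts at the lowest, 19.9 at the median and 51.7 at the highest in males, against 15.2, 38.0 and 79.4 in females. The male libraries were lower as a group, with overlap over most of the range. The means were 21.0 ± 12.2 in males and 40.6 ± 19.7 in females (SD, n = 29 each), differing by -1.07 on the log2 scale (SE 0.242, limma adjusted p = 0.0412). Males were lower in 6 of 6 groups of genotype and treatment, with log2 differences of -0.51 in HT fluoxetine, -1.24 in HT lithium, -0.47 in HT vehicle, -1.05 in WT fluoxetine, -1.75 in WT lithium and -1.42 in WT vehicle. At a median of 26.5 reads the counting error of a single library is large.

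Pcdhb10, a single-exon beta gene (chr18:37411664-37414514), had 85.7, 118 and 146 normalised counts in males, against 87.6, 134 and 165 in females, as lowest, median and highest. The ranges nearly coincided at the lower end and the female libraries reached higher. The means were 116 ± 15.3 in males and 134 ± 15.6 in females (SD, n = 29 each), differing by -0.21 on the log2 scale (SE 0.0475, limma adjusted p = 0.0499). It was lower in males in 6 of 6 groups, by log2 differences between -0.33 (WT fluoxetine) and -0.06 (WT lithium).

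**Figure D4:**
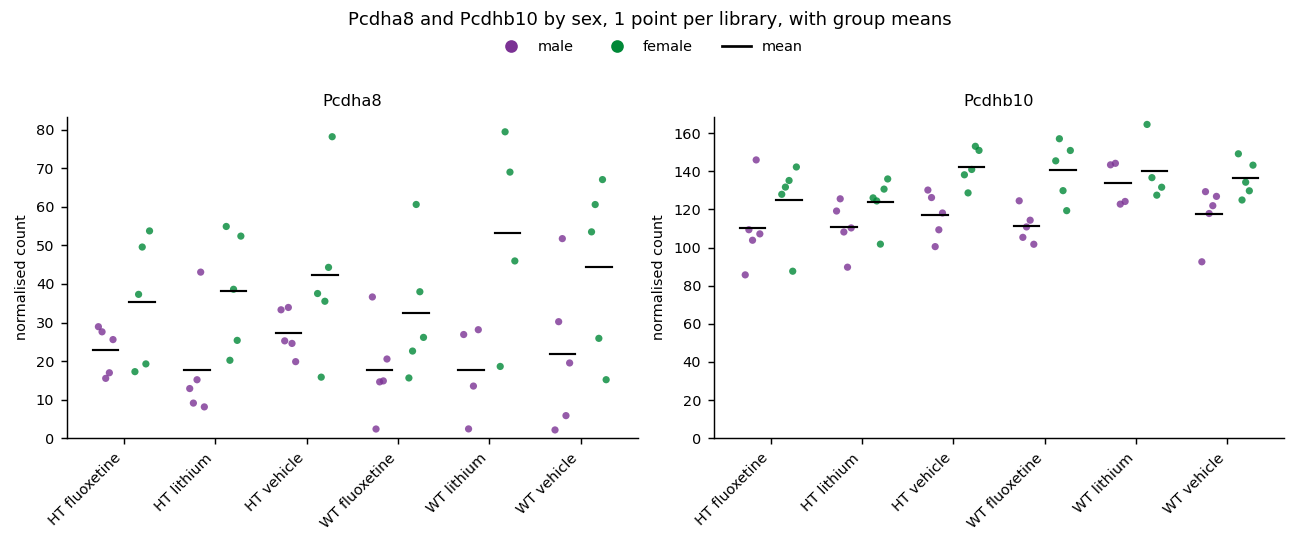
Normalised count of members with the smallest p for sex in every library, males left of females within each genotype and treatment, with the mean of each group. Pcdha8 averages 21.0 in males and 40.6 in females and Pcdhb10 116 in males and 134 in females, and the sexes overlap in both genes.

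Other beta genes had values below 0 without passing. They were Pcdhb6 (73.2 ± 16.7 in males, against 89.8 ± 14.1 in females, -0.31, SE 0.0711, limma adjusted p = 0.0541), Pcdhb9 (-0.13, adjusted p = 0.096) and Pcdhb3 (-0.21, adjusted p = 0.128). Males were lower in all 6 groups for 4 of 14 alpha isoforms (Pcdha1, Pcdha2, Pcdha7 and Pcdha8), 4 of 21 beta genes (Pcdhb3, Pcdhb6, Pcdhb10 and Pcdhb12) and 0 of 22 gamma isoforms. The share of all genes tested that were lower in all 6 groups is not given here, so these counts are descriptions. In gamma Pcdhgb4 had the smallest p, with 230 ± 32.8 in males, against 196 ± 42.3 in females (0.25, SE 0.072, limma adjusted p = 0.193), and was higher in males in 6 of 6 groups. Of the C-type isoforms Pcdhac1 had 0.14 (adjusted p = 0.468) and Pcdhgc3 0.08 (adjusted p = 0.482).

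The calls for sex were sensitive to the libraries. Pcdha8 passed without any 1 of 26 of the 58 libraries and Pcdhb10 without any 1 of 16, and without the 10 libraries of low olfactory bulb level, of which 7 were male, 0 members passed. The log2 differences were then -0.93 for Pcdha8 (limma adjusted p = 0.254) and -0.21 for Pcdhb10 (limma adjusted p = 0.106), the second as large as with all libraries. The olfactory bulb level was 7.75 ± 2.11 in males and 8.33 ± 1.65 in females (SD, n = 29 each, 0 of 4 markers called, median -0.55), and beta values below 0 numbered 16 of 21 with all libraries and 11 of 21 without those 10. The exon length slope was 1.04 ± 0.0282 in males and 1.04 ± 0.0359 in females. By edgeR on 54 libraries the count was 0, where 17 of all genes passed. By DESeq2 it was 2, and the count over all genes is not given here.

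**Figure D5:**
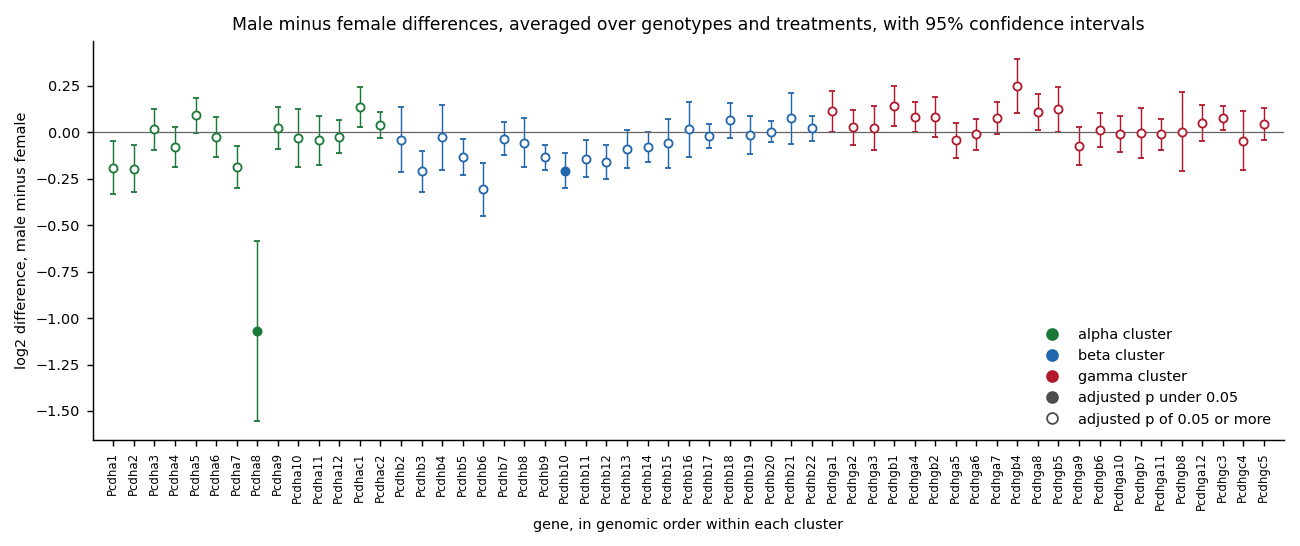
Log2 difference of males against females for each of the 57 genes in array order, averaged over genotypes and treatments, with genes that passed at an adjusted p under 0.05 marked. Pcdha8 at -1.07 and Pcdhb10 at -0.21 passed, and 16 of 21 beta values lie below 0 and 15 of 22 gamma values above 0.

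Genes that act on the arrays were read as a list of 25 regulators of promoter choice and silencing, among them Ctcf, cohesin and its loaders, DNA methyltransferases, Setdb1 and Smchd1. The list had 5 calls with fluoxetine in HT (20%, where 12.8% of all genes tested passed), 2 with lithium in HT (8%, against 14.1%), 1 with fluoxetine in WT (4%, against 7.39%) and 1 with lithium in WT (4%, against 3.34%). With fluoxetine in HT 2 rose, Stag1 (0.16, limma adjusted p = 0.0385), a cohesin subunit, and Lrif1 (0.20, adjusted p = 0.027), a nuclear partner of Smchd1, and 3 fell, Smc1a (-0.12, adjusted p = 0.0226), another cohesin subunit, the maintenance DNA methyltransferase Dnmt1 (-0.13, adjusted p = 0.0241) and the corepressor Trim28 (-0.10, adjusted p = 0.0172). With lithium in HT the cohesin regulator Pds5a rose (0.13, limma adjusted p = 0.0164) and Trim28 fell (-0.11, adjusted p = 0.00649). With fluoxetine in WT Zfp143, a zinc finger protein of chromatin loop anchors, rose to 318 ± 20.9, against 263 ± 21.6 with vehicle (0.28, limma adjusted p = 0.00329), and with lithium in WT the histone H3 lysine methyltransferase Setdb1 rose (0.12, adjusted p = 0.0293). None of the 25 passed for genotype, sex or an interaction by limma.

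Of 23 genes whose products bind or signal with clustered protocadherins, Nlgn2, a postsynaptic adhesion protein of inhibitory synapses (-0.18, limma adjusted p = 0.00337), and Axin1, a scaffold of the Wnt pathway (-0.16, adjusted p = 0.0185), fell with fluoxetine in HT (8.7% of the list, against 12.8% of all genes), and 0 passed in the other comparisons. Of 12 protocadherin genes outside the arrays, Pcdh1 fell with fluoxetine in HT (-0.21, limma adjusted p = 0.0344), Pcdh8 (-0.16, adjusted p = 0.0102) and Pcdh12 (-0.66, adjusted p = 0.0323) fell with lithium in HT, and Pcdh17 rose with fluoxetine in WT (0.25, adjusted p = 0.0117). These were 8.33%, 16.7% and 8.33% of the 12 genes, where 12.8%, 14.1% and 7.39% of all genes tested passed. Markers of striatal projection neurons, choroid plexus, meningeal fibroblasts and serotonergic neurons had 0 members called in any comparison.

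Other transcripts lie within the arrays. Of 20 annotated genes that overlap the clustered protocadherins 5 are in the table. Of these 4 are on the opposite strand, and Gm38182 is a noncoding transcript on the same strand at the constant exons of gamma (chr18:37823879-37840382), whose reads cannot be told apart from those of the gamma isoforms where exons overlap. Gm38182 had 36.8 normalised counts at the lowest, 44.97 at the median and 77.9 at the highest in HT fluoxetine, against 40.3, 78.1 and 96.3 in HT vehicle, and fell by 0.54 on the log2 scale (SE 0.156, limma adjusted p = 0.0175). Its HT fluoxetine median was below all but 1 of the HT vehicle libraries. Its mean was 59.99 ± 12.7 in HT lithium (-0.28, limma adjusted p = 0.232). A further 3 annotated protein-coding genes (Gm42416, Gm37013 and Gm37388) read through all 3 arrays and were not analysed here.

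Among 35 other genes tested within 500000 bases of the arrays, 0 passed for sex and 1 had an unadjusted p under 0.05. With fluoxetine in HT 3 rose (Cd14, Hars2 and Taf7) and 3 fell (Ndufa2, Gm38182 and Pcdh1), together 17.1% of the 35, where 12.8% of all genes tested passed. With lithium in HT 2 fell (Ndufa2 and Pcdh12), which is 5.71%, where 14.1% of all genes passed. Averaged over treatments, Fchsd1 was higher in HT than in WT (0.18, limma adjusted p = 0.024), 2.86% of the 35, where 0.468% of all genes passed.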

How the data were processed

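Prefrontal cortex RNA had been sequenced from stranded poly(A) libraries, per the labels' protocols. The submitters' processing notes name the build GRCm38, DESeq2 1.19.11, R 3.6.0 and Salmon 0.11.2. The annotation release, and whether quantification used the strand, are not given in the sources used here. The authors deposited 1 table of a normalised signal per Ensembl gene (18088) and library (58), here called the normalised count. Every nonzero value was a whole multiple of 1 step per library (100% of values, tolerance 0.01), as counts divided by a size factor would be. Reads recovered from these steps, 23.5 to 38.6 M per library, entered tests on counts for 54 libraries. The other 4 (HT vehicle male 1, male 5 and female 2, plus male 3 of HT lithium) had steps of 0.990 to 1.01 that also gave whole multiples. They were left out of the tests on counts, as their steps were not taken as checked.

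Symbols, positions and exon lengths came from GENCODE M21 for 18077 IDs, with 11 unmatched. Groups came from the labels. The plan provided for counts or normalised values, and the test for normalised values applied: limma 3.58.1 (R 4.3.3) on log2(value + 1), 1 coefficient per group of genotype, treatment and sex, a variance trend, all 58 libraries and 16669 genes with a mean of at least 10 (1419 were not tested). All 57 clustered protocadherins were tested. Fold changes are on the log2(value + 1) scale and understate those of low genes. P-values were adjusted over all of these genes (Benjamini-Hochberg), and rose and fell are used at an adjusted p under 0.05. The script was tested on simulated data. No pair of replicates was identical (112 pairs, difference 2.94 to 57.0 times sampling noise).

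The members, lists and alternatives were chosen with earlier results of these data known. Named were members called in any comparison, the 3 with the smallest p per array in each comparison, the C-type isoforms and the 3 highest and 3 lowest per kilobase in each array. Some of these are given only in counts. Pcdhgb7, Gm38182 and members given in a comparison outside this rule were chosen after their values were seen. The olfactory bulb level is the mean log2 value of 4 markers, and the exon length slope that of a library's log2 values on log2 exon length. Alternatives were pseudocounts of 0.5 and 10, a minimum mean of 100 or none, quantile normalisation, limma with no variance trend, a fit of only the groups compared, a replicate block, either of those measures as a covariate, edgeR 4.0.16 and DESeq2 1.42.0 on recovered reads, and leaving out each library. Chosen after seeing the data were both covariates together, leaving out the 10 low olfactory bulb libraries, limma on 54 libraries and scaling to equal library totals. Genes on chromosome 18 are shown without their sequences.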

Additional observations from a re-analysis of the deposited data

Results flagged for a closer look

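In 84 checks for a library far from the others of its group, 4 met the criterion, and chance gives about 1 in 20. Pcdha8 had 78.2 normalised counts in HT vehicle female 5, where the next HT vehicle library had 44.3. The gamma total was 21734 in HT lithium male 1, one of the libraries of low olfactory bulb level, where the next HT lithium library had 20332. The gamma total was 18105 in WT fluoxetine female 3, where the next WT fluoxetine library had 19464. C-type isoforms made up 72.1% of the gamma total in WT lithium female 2, where the next WT lithium library had 65.1%.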

How the results depend on the processing

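The count of 57 clustered protocadherins called moved by more than 1.5 times under these settings, and where not stated the cause was not tested. For fluoxetine in HT the main count was 5, where 2134 of all 16669 genes tested passed. It was 3 without the variance trend (2075 of all genes) and with the replicate block (1906). It was also 3 on 54 libraries by limma (789), edgeR (817) and DESeq2 (1003). It was 16 with the exon length slope (28.1%, against 14.2% of all genes) and 15 with both covariates (26.3%, against 22.9%). In the compared groups alone it was 2 (1753 of all genes) and without the 10 low olfactory bulb libraries 1 (1916). For lithium in HT (3) it was 10 with the slope (17.5%, against 10.1%), 8 with both covariates (14%, against 9.54%) and 5 in the compared groups alone (8.77%, against 18.3%). On 54 libraries it was 1 by limma (1061 of all genes passed, against 2345 in the main fit), edgeR (1074) and DESeq2 (1257). For fluoxetine in WT (1) it was 0 with the slope (273 of all genes passed, against 1232 in the main fit) and with both covariates (362). It was also 0 at a mean of at least 100 (1193 of 12525 genes), where Pcdhgb8 is no longer tested. For sex the main count was 2, where 22 of all genes passed. It was 1 without a filter (23 of 18088 genes) and at a mean of at least 100 (19 of 12525, Pcdha8 is no longer tested). It was also 1 without the trend (21 of all genes), with library total scaling (20) and with the olfactory bulb level (21). It was 4 with the slope (43) or both covariates (60), and 0 without the 10 libraries (17) and by limma and edgeR on 54 (17 each). For HT against WT averaged over treatments (0) it was 1, Pcdhac1, with the olfactory bulb level (188 of all genes passed, against 78 in the main fit) or both covariates (357). Under fluoxetine (0) it was 1, Pcdhac2, with the olfactory bulb level (-0.19, limma adjusted p = 0.0214), where 225 of all genes passed, against 102 in the main fit. All other counts, those with pseudocounts of 0.5 and 10 and quantile normalisation among them, stayed within 1.5 times.

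Leaving out 1 library gave 1 to 6 for fluoxetine in HT, 0 to 4 for lithium in HT, 1 to 2 for fluoxetine in WT, 0 to 1 averaged over treatments, 0 to 5 for sex and 0 elsewhere. For fluoxetine in HT it was 1 without HT fluoxetine male 1 or male 3 or HT vehicle female 4, 2 without HT fluoxetine female 1 or female 4 or HT vehicle female 3, female 5, male 1 or male 2, and 3 without HT fluoxetine female 5 or male 5 or HT vehicle male 4 or male 5. For lithium in HT it was 0 without HT lithium female 5 or male 2 or HT vehicle female 3, and 1 without HT lithium female 4, male 3 or male 5 or HT vehicle female 5, male 1 or male 2. The 2 in WT came without WT fluoxetine female 5, and the 1 averaged over treatments without HT fluoxetine male 5. For sex it was 0 without any 1 of 23 libraries, 1 without any 1 of 20, 3 without WT fluoxetine male 1 and 5 without HT fluoxetine male 4. The number of all genes called without each library is not given here. Whether these ranges are particular to the clustered protocadherins was not tested.

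Replicate numbers gave no sign of pairing (309 pairs, median residual correlation -0.007, 68 over 0.1, 11 of 58 libraries closest to their own number), and with the replicate block the count was 3 for fluoxetine in HT, against 5 without it, 2 for lithium in HT, against 3, 3 for sex, against 2, 1 for fluoxetine in WT, as without it, and 0 for the other comparisons, as without it. Counts over all genes with the block are given only for fluoxetine in HT. Most of the 100 named results had no call in the main fit, and these counted as kept where they stayed without one in the same direction. Only a result with a call could become weaker, so the share kept does not measure how firm the calls were. Of 4559 alternatives of the 100 results 4323 kept direction and side of the threshold, 192 were weaker, 35 stronger and 9 changed sign, all without a call. These were, for fluoxetine in WT, Pcdhb18 (-0.0013), Pcdhb19 (-0.030) and Pcdhga9 (-0.013) with the slope and Pcdhb18 (-0.012), Pcdhb19 (-0.039) and Pcdhga9 (-0.015) with both covariates, for lithium Pcdhac2 with both covariates in HT (-0.012) and in the interaction (-0.012), and for the fluoxetine interaction Pcdha7 without the 10 libraries (0.089). Depth limits Pcdha8 most, with as few as 2 reads in a library.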
